A study of Homo sapiens with 2 samples.

Results

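Many PABPC1 ChIP-seq peaks on unplaced sequences, and on chromosomes in RWPE-empty vector cells, lay in repeated DNA, with a scatter of single-copy sites on chromosome 9 beside them. A dense region of chromosome 19 and the unplaced sequence that carries ribosomal DNA (chrUn_gl000220) were left out. The members were taken by position: all RWPE-empty vector peaks outside these places, which were 166 of 424, and all RWPE-ERG peaks outside chromosomes 1 to 22, X and Y and outside chrUn_gl000220, which were 57 of 1481. The lists therefore differ in what they can hold, since only the first takes in whole chromosomes, and they were described apart. RWPE-empty vector and RWPE-ERG are RWPE1 cells, an immortalized line of normal human prostate epithelium, that carry an empty retroviral vector or express the transcription factor ERG, grown in the same keratinocyte medium. Chromatin fixed with formaldehyde was precipitated with an antibody to PABPC1, and 3 ChIP experiments were pooled into 1 library for each cell line. With 1 library per condition there is no replicate spread and no test between the conditions, and cells, library and depth cannot be told apart.

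PABPC1 is a poly(A)-binding protein that coats the tails of messenger RNA and is found mostly in the cytoplasm, and the ChIP-seq asked whether it is also on chromatin. Centromeres and the DNA beside them are built of satellites, short units repeated head to tail: alpha satellite and beta satellite have units of 171 and 68 bp, and satellites II and III hold many copies of GGAAT. The DNA next to chromosome ends holds further tandem and duplicated sequence. Reads from such DNA match many places, the assembly holds fewer copies than the cells do, and the input, chromatin sequenced without precipitation, piles up there as well. Blacklisted regions were removed before peaks were called, and which repeats that took out was not tested. How reads that match many places were treated is not given in the sources used here, and the tags, the local input and the listing of each repeat peak depend on it.

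The sequences that stand for each kind of peak are given on hg19. The strongest RWPE-empty vector member lay on the long arm of chromosome 2, close to another, and both are like the spacer of the ribosomal sequence. Capitals mark stretches of 12 or more bases shared, on either strand, with the part of chrUn_gl000220 each is most like; the last line is that part for the second peak.
chr2:133029235-133029383 (+ strand): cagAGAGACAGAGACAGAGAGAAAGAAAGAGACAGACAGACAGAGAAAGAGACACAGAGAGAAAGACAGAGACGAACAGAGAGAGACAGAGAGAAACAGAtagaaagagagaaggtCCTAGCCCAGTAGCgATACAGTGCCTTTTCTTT
chr2:133028361-133028464 (+ strand): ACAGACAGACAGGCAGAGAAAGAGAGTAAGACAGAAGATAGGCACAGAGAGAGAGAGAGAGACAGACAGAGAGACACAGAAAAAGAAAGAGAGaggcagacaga
chrUn_gl000220:131441-131542 (- strand): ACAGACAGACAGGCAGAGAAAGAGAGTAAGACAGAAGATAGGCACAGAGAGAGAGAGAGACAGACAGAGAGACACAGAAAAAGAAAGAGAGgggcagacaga

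Short-unit repeats on chromosomes gave other strong members. The subtelomeric peak on chromosome 7 is made of purines only (capitals mark GGAA, the core of the sites that ETS factors such as ERG bind, or its complement). For the peaks on chromosomes 4 and 9, 2 neighbouring units are shown, with capitals at bases the units share, 46 of 46 and 30 of 32.
chr7:945182-945360 (+ strand): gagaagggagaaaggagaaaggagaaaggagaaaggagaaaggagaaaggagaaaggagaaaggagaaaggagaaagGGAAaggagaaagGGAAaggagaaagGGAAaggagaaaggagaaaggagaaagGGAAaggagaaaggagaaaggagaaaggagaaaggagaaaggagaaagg
chr4:1422013-1422058 (+ strand): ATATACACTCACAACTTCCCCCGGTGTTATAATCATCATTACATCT
chr4:1422059-1422104 (+ strand): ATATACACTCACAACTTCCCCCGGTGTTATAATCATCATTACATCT
chr9:140222699-140222730 (+ strand): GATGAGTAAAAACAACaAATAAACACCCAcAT
chr9:140222731-140222762 (+ strand): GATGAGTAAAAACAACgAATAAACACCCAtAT

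Satellite arrays on unplaced sequences are shown at the strongest peak of each kind. The alpha satellite-length pair below runs past the end of its peak, and its second unit lies outside that peak. The first line is a GGAAT repeat from the RWPE-empty vector list (capitals mark GGAAT or its complement ATTCC). The pairs that follow are neighbouring units, or the first 120 bases of them, with capitals at shared bases: an alpha satellite-length repeat from the RWPE-empty vector list (104 of 120 shared, 170 bp apart), then from the RWPE-ERG list a beta satellite-length repeat (58 of 68), a 147-bp repeat (112 of 120) and a 64-bp repeat (62 of 64).
chrUn_gl000216:33171-33258 (+ strand): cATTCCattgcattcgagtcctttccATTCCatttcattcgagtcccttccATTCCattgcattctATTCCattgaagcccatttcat
chr9_gl000199_random:13382-13501 (+ strand): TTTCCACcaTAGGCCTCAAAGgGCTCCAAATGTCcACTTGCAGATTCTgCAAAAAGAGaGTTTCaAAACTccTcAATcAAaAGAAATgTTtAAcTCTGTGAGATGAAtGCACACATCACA
chr9_gl000199_random:13552-13671 (+ strand): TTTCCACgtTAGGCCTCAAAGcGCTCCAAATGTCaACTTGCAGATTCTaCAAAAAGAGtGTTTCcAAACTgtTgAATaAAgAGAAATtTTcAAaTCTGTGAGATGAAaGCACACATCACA
chrUn_gl000225:85415-85482 (+ strand): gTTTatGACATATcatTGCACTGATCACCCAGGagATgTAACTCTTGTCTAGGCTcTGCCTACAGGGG
chrUn_gl000225:85483-85550 (+ strand): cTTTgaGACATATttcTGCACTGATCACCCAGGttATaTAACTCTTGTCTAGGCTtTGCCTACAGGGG
chrUn_gl000224:18079-18198 (+ strand): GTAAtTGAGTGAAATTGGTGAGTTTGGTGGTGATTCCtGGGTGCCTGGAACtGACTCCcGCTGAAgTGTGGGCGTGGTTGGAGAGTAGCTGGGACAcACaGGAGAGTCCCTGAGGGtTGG
chrUn_gl000224:18226-18345 (+ strand): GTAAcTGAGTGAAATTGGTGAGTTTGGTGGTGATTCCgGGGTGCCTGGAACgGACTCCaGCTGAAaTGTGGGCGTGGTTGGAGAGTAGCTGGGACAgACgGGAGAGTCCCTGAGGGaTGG
chrUn_gl000214:65025-65088 (+ strand): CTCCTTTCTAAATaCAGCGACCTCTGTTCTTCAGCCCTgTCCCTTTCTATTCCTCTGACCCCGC
chrUn_gl000214:65089-65152 (+ strand): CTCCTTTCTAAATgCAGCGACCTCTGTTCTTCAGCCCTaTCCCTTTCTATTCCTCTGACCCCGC

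Not every member is a tandem repeat. The strongest RWPE-empty vector peak on chrUn_gl000224 is shown for comparison, with capitals at GGAA or its complement.
chrUn_gl000224:9889-10032 (+ strand): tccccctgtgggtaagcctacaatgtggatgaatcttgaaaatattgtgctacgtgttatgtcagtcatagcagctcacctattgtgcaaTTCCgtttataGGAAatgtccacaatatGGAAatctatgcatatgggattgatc

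The label of repeat-rich DNA held for part of each list, and how large a part depended on the rule. A peak was called repeated when the median 31-base word of the whole listed peak occurred at 2 or more places of the genome. This was so for 112 of 166 RWPE-empty vector members (67.5%, 95% Wilson interval 60 to 74.1%) and for 36 of the 56 RWPE-ERG members whose sequence was at hand (64.3%, 51.2 to 75.5%). Among 200-bp windows of the genome the share was 14.3%, among the chromosome 19 peaks 2.01% and among RWPE-ERG peaks on assembled chromosomes 23.8%. The listed peaks were 85 to 450 bp long in RWPE-empty vector members and 299 to 1366 bp in RWPE-ERG members. The peaks and the genome windows were thus not of one length, and the effect of this on the shares was not tested. The shares fell below 50% with 50-base words, at 48.8% and 42.9%, and where 5 or more places were required, at 36.7% and 30.4%. In a tandem repeat, at least 80% of bases in the 200 bp around the summit recur at one spacing of up to 100 bp. Such a repeat lay under 17 RWPE-empty vector members (10.2%) and 6 RWPE-ERG members (10.7%), against 0.193% of genome windows. It lay under 0.402% of the chromosome 19 peaks and 6.22% of the whole RWPE-ERG list. The second value is inside the 95% Wilson interval of the RWPE-ERG members, so their share was not set apart from that of their list. At a match of 70% the shares of the members were 17.5% and 21.4%, and at 90% they were 4.82% and 1.79%. The share of RWPE-ERG members was 1.79% in 400 bp and 3.57% in 100 bp.

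The kinds of repeat differed between the lists. The RWPE-empty vector members comprised 17 peaks in alpha satellite-length repeats, 7 in GGAAT repeats, 16 in other tandem repeats, 76 in repeated sequence that met none of these limits, and 50 in single-copy sequence. The RWPE-ERG members comprised 25 peaks in beta satellite-length repeats, 5 in a 147-bp repeat, 2 in GGAAT repeats, 1 in a 64-bp repeat, 15 in other repeated sequence and 8 in single-copy sequence. 1 RWPE-ERG member, on chr17_ctg5_hap1, was not analysed for sequence here. Over the whole lists, the alpha satellite-length kind held 17 RWPE-empty vector and 2 RWPE-ERG peaks, and the beta satellite-length kind 0 and 27. These counts rest on the limits of each kind: the RWPE-empty vector peak chrUn_gl000225:2709-2810 also recurred best at 68 bp in its 200-bp window, at 61.4% of bases, but not over the longer window that set the kind.

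The lists differed in median base composition, with overlapping ranges. GC content at the summit had a median of 38%, from 26 to 53.5%, in RWPE-empty vector members and of 50%, from 37 to 72.5%, in RWPE-ERG members, close to the 39.5% of the chromosome 19 peaks and the 49% of the RWPE-ERG peaks on assembled chromosomes. AAAAA, the letters of the tail that PABPC1 binds, or its complement was present in 69.3% of RWPE-empty vector members and in 7.14% of RWPE-ERG members. The shares were 67.1% of genome windows and 36.7% of the RWPE-ERG peaks on assembled chromosomes. Over the whole listed peak, AAAAA was in 56.6% of RWPE-empty vector members and 17.9% of RWPE-ERG members. At least 10 CpG sites lay in 0 of the RWPE-empty vector members and in 11 of the RWPE-ERG members (19.6%), against 1.94% of genome windows. GGAA had a genome share of 82.6% and was found in 82.5% of the first list's members and in 60.7% of the second's. ACGGAT, in 1.15% of genome windows, was found in 0 and 1 members. At least 3 copies of GGAAT lay in 7 and 3 members, against 1.20% of genome windows. All motifs were counted on both strands. A match to these letters is a description of the window and not a binding site.

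**Figure D1:**
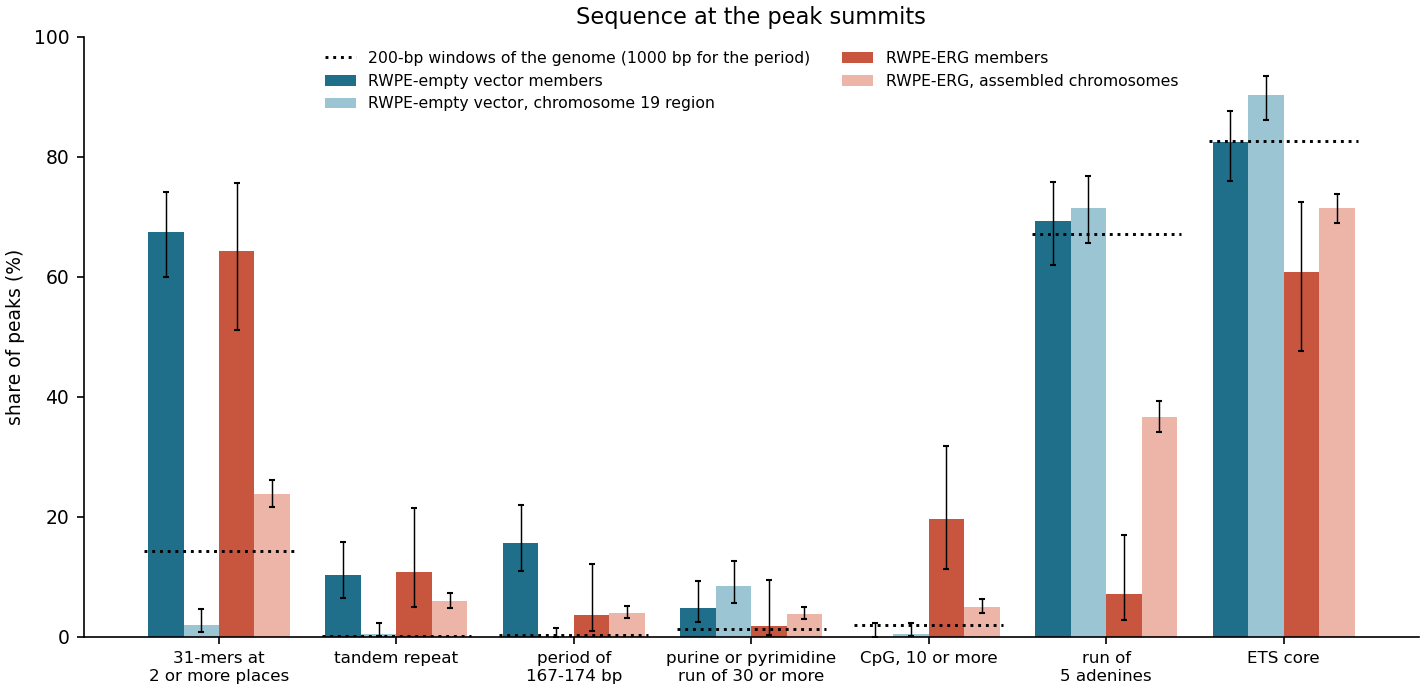
Share of peaks (%) with each sequence feature, for the members of each list and for the main other peaks of that list. Features were read in the 200 bp around the summit, the period in 1000 bp and the 31-mers over the whole listed peak. Bars carry 95% Wilson intervals, which cover counting error only, and dotted lines give the genome share. Members of both lists stand near 65% for repeated 31-mers, and RWPE-ERG members stand at 7.14% for the run of 5 adenines (AAAAA). The ETS core is GGAA.

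Over all listed members, the median local input was higher than at the chromosome 19 peaks or the RWPE-ERG peaks on assembled chromosomes. It was lower than on the ribosomal sequence, though the 25 beta satellite-length members had a median of 55.6. Local input here is the background MACS2 set at a summit, taken back from the fold enrichment and divided by the genome-wide background, so that 1 is the lowest value it can take. Its median was 2.02 in RWPE-empty vector members, with a range of 1.00 to 60.5, and 1.03 in the chromosome 19 peaks of the same list. The members with a -log10 p of at least 5 had a median of 3.77, and those with a MACS2 q of at most 0.05 had 4.46. In RWPE-ERG members the median was 15.5, with a range of 1.00 to 153, and 1.08 in the peaks on assembled chromosomes. The peaks of the ribosomal sequence had medians of 61.3 in the RWPE-empty vector list and 28.7 in the RWPE-ERG list. At a MACS2 q of at most 0.05 the RWPE-ERG members had a median of 36.6. That is above the 28.7 of the ribosomal peaks, of which 24 of 25 met this limit, so the order in that list depends on the limit. RWPE-empty vector members on unplaced sequences stood at a median of 13.1 and those on chromosomes at 2.01. At 84 of the 166 RWPE-empty vector members (50.6%) the background at the summit was at most 1 input tag, to within 1%, and in 23 of them it equalled 1. The same was so at 232 of the 249 chromosome 19 peaks (93.2%).

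The tags at the summit ranged from 10 to 139 with a median of 21 in RWPE-empty vector members, and from 3 to 113 with a median of 18 in RWPE-ERG members. The libraries hold 38648756 and 2366623 ChIP tags, so these counts are not on one scale. With duplicates removed, at most 170 tags of the 85-bp RWPE-empty vector fragments can cover one base, and the fullest member reached 81.8% of that. The fold enrichment, summit coverage plus 1 over local background plus 1, ran from 1.61 to 8.52 in RWPE-empty vector members and from 1.96 to 7.02 in RWPE-ERG members.

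**Figure D2:**
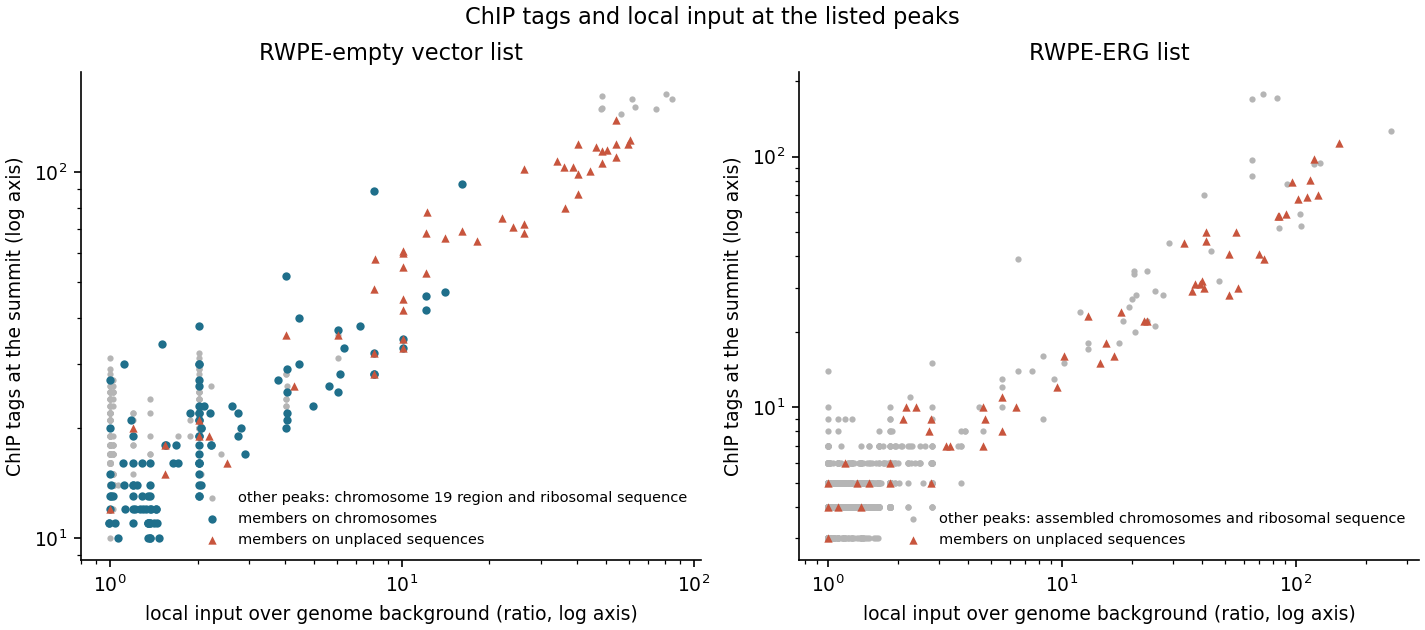
ChIP tags at the summit against local input over genome background, both on log axes, for every listed peak of RWPE-empty vector (left) and RWPE-ERG cells (right). Members with high local input, up to 60.5 on the left and 153 on the right, also carry the most tags, and few members on chromosomes exceed a ratio of 10.

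MACS2 listed peaks at a p of 0.001, and members near that limit are many. The lowest -log10 p was 3.02 in RWPE-empty vector members and 3.73 in RWPE-ERG members, with medians of 4.68 and 7.17. A q of at most 0.05 was reached by 31 of 166 RWPE-empty vector members (18.7%), where the share of the whole list was 28.8%, and by 38 of 57 RWPE-ERG members (66.7%), where it was 36.9%. The members were chosen from these calls, so nothing is read from the shares.

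The strongest RWPE-empty vector member, chr2:133029235-133029383, had 89 tags, a fold of 7.45, a -log10 p of 22.55 and a local input of 8.07. By the 31-base rule it is single copy. It lies between genes, 9.41 kb from the start of CDC27P1, a pseudogene of the cell cycle gene CDC27. Its neighbour chr2:133028361-133028464 had 34 tags, a fold of 8.50 and a local input of 1.51. They align with the ribosomal sequence over 146 bp at 88.4% identity and over 104 bp at 97.1% identity. In all, 35 of 166 RWPE-empty vector members and 9 of 57 RWPE-ERG members align at 80% or more over at least 50 bp with chrUn_gl000220. For 7 and 9 of these the best-aligned stretch is itself under a RWPE-ERG peak. The others of these 7 include chr10:98561385-98561536 (30 tags, 90.9% identity over 154 bp), chr2:135875038-135875297 (30 tags, 91.1% over 79 bp) and a peak on chrUn_gl000229 (21 tags, 88.4% over 129 bp). In the strongest member and its neighbour the alike sequence is simple, and purines made up 75.8% and 85.6% of these peaks. What share of other peaks or of genome windows aligns with chrUn_gl000220 was not tested.

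Of the 10 RWPE-empty vector members with the highest -log10 p, the second was chr4:1422013-1422104 in a 46-bp repeat, 21.8 kb from NKX1-1, a homeobox gene. It had 52 tags, a fold of 7.40 and a local input of 4.03. A second peak of the same repeat, chr4:1422943-1423027, had 13 tags. The third, chr9:140222699-140222904, lay in a 32-bp repeat in an intron of EXD3, which encodes a protein with an exonuclease domain, and had 93 tags at a local input of 16.1. The same intron held 2 more members with 38 and 40 tags. The fourth, chr7:945182-945360, covers an annotated exon where ADAP1, which encodes a GTPase-activating protein of the Arf family, overlaps COX19, which encodes an assembly factor of cytochrome c oxidase. It had 38 tags and a fold of 8.24, and 2 more members within 1 kb had 23 and 30 tags. The fifth, chr2:135875038-135875297, lay in a 27-bp repeat in an intron of RAB3GAP1, a regulator of Rab GTPases, with a fold of 8.52, the highest of the members. Another 3 of the 10 were on chrUn_gl000214, chrUn_gl000224 and chrUn_gl000225, with 78, 58 and 68 tags. Of the 16 members in other tandem repeats, 3 held AAAAA.

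Of the 116 RWPE-empty vector members on chromosomes, 34 (29.3%, Wilson interval 21.8 to 38.1%) lay within 5 Mb of a run of at least 2.5 Mb of unknown bases, which in hg19 marks centromeres and large blocks of heterochromatin. Of known bases, 7.51% lie there. Within 1 Mb of a chromosome end lay 14 (12.1%, 7.33 to 19.2%), against 1.35% of known bases. Both kinds together left 69 members elsewhere, since 1 on chromosome Y met both rules. With a limit of 0.5 Mb from an end, the subtelomeric share of these members was 6.90%. The rule left out 249 chromosome 19 peaks, of which 0 lay in either place, and this raises the shares of the members. Of all 365 RWPE-empty vector peaks on chromosomes, 9.32% lay within 5 Mb of such a run and 3.84% within 1 Mb of an end. Of the RWPE-ERG peaks on assembled chromosomes, the shares were close to these, at 9.79% and 4.43%. Neighbouring peaks share their sequence, so these intervals treat as separate what is partly one place.

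The -log10 p of the pericentromeric members ran from 3.04 to 6.78, with a median of 4.66, and their tags from 11 to 46, with a median of 20. The medians over all RWPE-empty vector members were 4.68 and 21. A q of at most 0.05 was reached by 1 of 34, where the share of the whole list was 28.8%. Repeated 31-base words were found in 28 of them, and tandem units of up to 100 bp at a match of 80% in 0, while 1 was of the GGAAT kind and 1 of the alpha satellite-length kind. The group next to the chromosome 1 gap had 10 members, among them loci of 4 peaks in 66.9 kb and of 3 peaks in 39.2 kb, with local inputs of 1.65 to 2.62. On chromosome 21 a locus of 5 members spanned 107 kb beside the gap, with 18 to 33 tags.

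Of the 14 subtelomeric members, 7 had a q of at most 0.05, where the share of the whole list was 28.8%, and 8 were in tandem repeats. The ADAP1 and COX19 peaks gave 3 of the 14 and the EXD3 peaks another 3. The peaks chr16:90183256-90183350, in an intron of FAM157C, and chr9:141122550-141122685, 11.5 kb from FAM157B, lie 171 kb and 90.7 kb from their chromosome ends and share a 63-bp repeat. They had 28 and 33 tags at local inputs of 8.07 and 6.34. FAM120B held another in an intron, in a 39-bp repeat with 47 tags and a local input of 14.1.

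**Figure D3:**
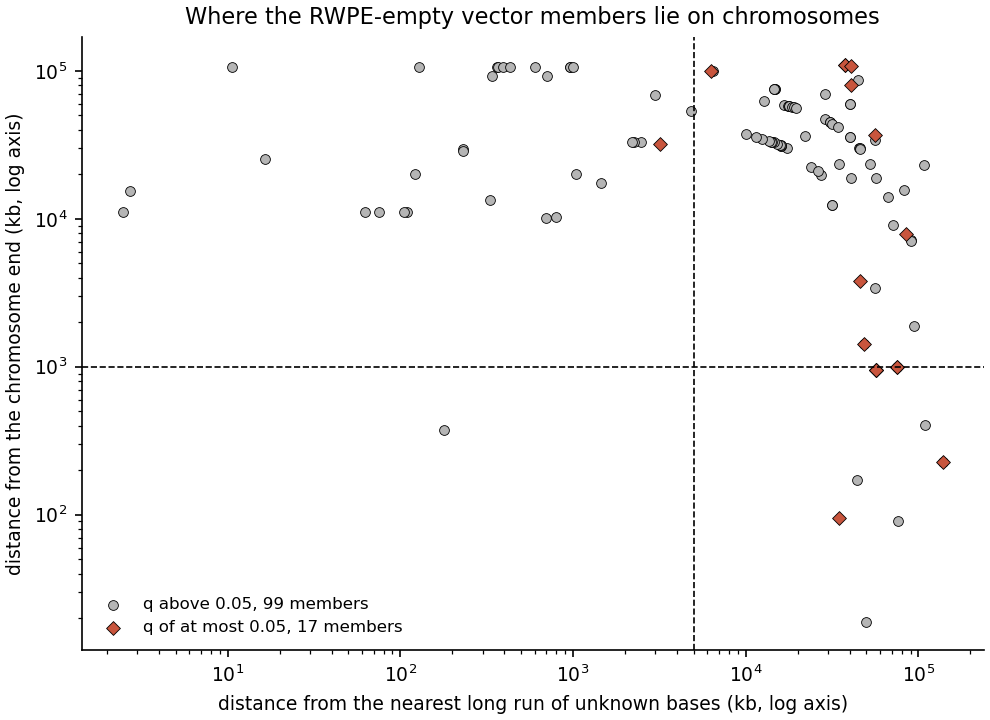
Distance from the nearest long run of unknown bases (kb, log axis) against distance from the chromosome end (kb, log axis) for the 116 RWPE-empty vector members on chromosomes. Dashed lines mark 5 Mb and 1 Mb. Of the 17 members with a q of at most 0.05 (diamonds), 1 lies left of the vertical line and 7 lie under the horizontal line.

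Of the 69 members elsewhere, 34 were on chromosome 9, 15 on the short arm and 19 on the long arm, from chr9:19861489 to chr9:122444964. That is 0.283 peaks per Mb of known sequence, against 0.0128 per Mb over the other chromosomes. In the RWPE-ERG list the same count gave 0.907 per Mb on chromosome 9 and 0.399 per Mb on the others, among which chromosome 20 had 1.45 per Mb. These 34 peaks go against the label of repeats: 28 were in single-copy sequence. They had 10 to 29 tags, -log10 p of 3.04 to 5.86 and a median local input of 1.35, and 0 reached a q of 0.05, where the share of the whole list was 28.8%. Genes that hold one include CHMP5, part of the ESCRT machinery for membrane scission, AUH, an RNA-binding enzyme of leucine breakdown, and ZCCHC7, a zinc finger protein of nuclear RNA decay. Whether these densities differ beyond the replicate spread was not tested.

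The other 35 members elsewhere had a median of 19 tags, and 23 were in repeated sequence. Sequence of very high copy number was among them, and the median 31-base words of chr5:62095593-62095677, chr7:89833502-89833610 and chr7:23363414-23363523 occur at 2884, 2916 and 2430 places. The second lies in an intron of STEAP2, which encodes a metal reductase of prostate epithelium, and the third in an intron of IGF2BP3, which encodes an RNA-binding protein. They had 19, 15 and 15 tags at local inputs of 1.20, 1.00 and 2.01. Over all chromosomes, 2 members touched an annotated exon, 48 were in introns and 66 between genes.

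On chr9_gl000199_random the RWPE-empty vector list held 17 peaks and the RWPE-ERG list 0. All 17 recurred best at a spacing of 171 bp, that of alpha satellite, and 16 matched there at 50% or more of bases, the limit set for this kind. The other matched at 46.2%. In the pair of lines shown above, the neighbouring units lie 170 bp apart. The local input was between 4.03 and 60.5 with a median of 46.4, and the 5 highest values of the RWPE-empty vector members were here. The tags ran from 36 to 139. The strongest by p, chr9_gl000199_random:13378-13471, had the fewest tags, 36, with the lowest input and a fold of 5.22. The fullest, at 54648-54737, had 139 tags and a fold of 2.06. All 17 held AAAAA and GGAA in their windows.

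chrUn_gl000216 carried peaks of both lists in 2 kinds of satellite. Its GGAAT repeats held 6 RWPE-empty vector peaks with 26 to 99 tags and local inputs of 4.29 to 40.3, and 2 RWPE-ERG peaks with 58 and 31 tags and inputs of 85.2 and 38.9. The nearest peaks of the lists were 4046 bp apart. The beta satellite-length repeats farther along held 4 RWPE-ERG peaks, with 39 to 79 tags, and 0 RWPE-empty vector peaks. A q of at most 0.05 was reached by 0 of the 6 RWPE-empty vector peaks, where the share of the whole list was 28.8%, and by 5 of the 6 RWPE-ERG peaks, where it was 36.9%, in libraries of unequal depth. A seventh GGAAT peak of the RWPE-empty vector list was on chromosome 1, chr1:142967621-142967705, with 22 tags.

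chrUn_gl000225 held 18 RWPE-ERG peaks over 120 kb of the beta satellite-length repeat. Their tags ran from 16 to 98 and their local input from 15.5 to 120. The strongest, chrUn_gl000225:85415-85938, had 98 tags, a fold of 3.06 and a -log10 p of 21.3, the highest of the RWPE-ERG members. 3 more such peaks on chrUn_gl000228 included the highest local input, 153, with 113 tags at chrUn_gl000228:118082-118811. The RWPE-empty vector list had 2 peaks on chrUn_gl000225, outside the stretch of RWPE-ERG peaks. The first, at 2709-2810, had 68 tags at a local input of 12.1 and aligned with 25 RWPE-ERG members. The second, at 160784-160938, had 20 tags and aligned with 0. AAAAA was found in 0 of the 25 beta satellite-length peaks and GGAA in 7.

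**Figure D4:**
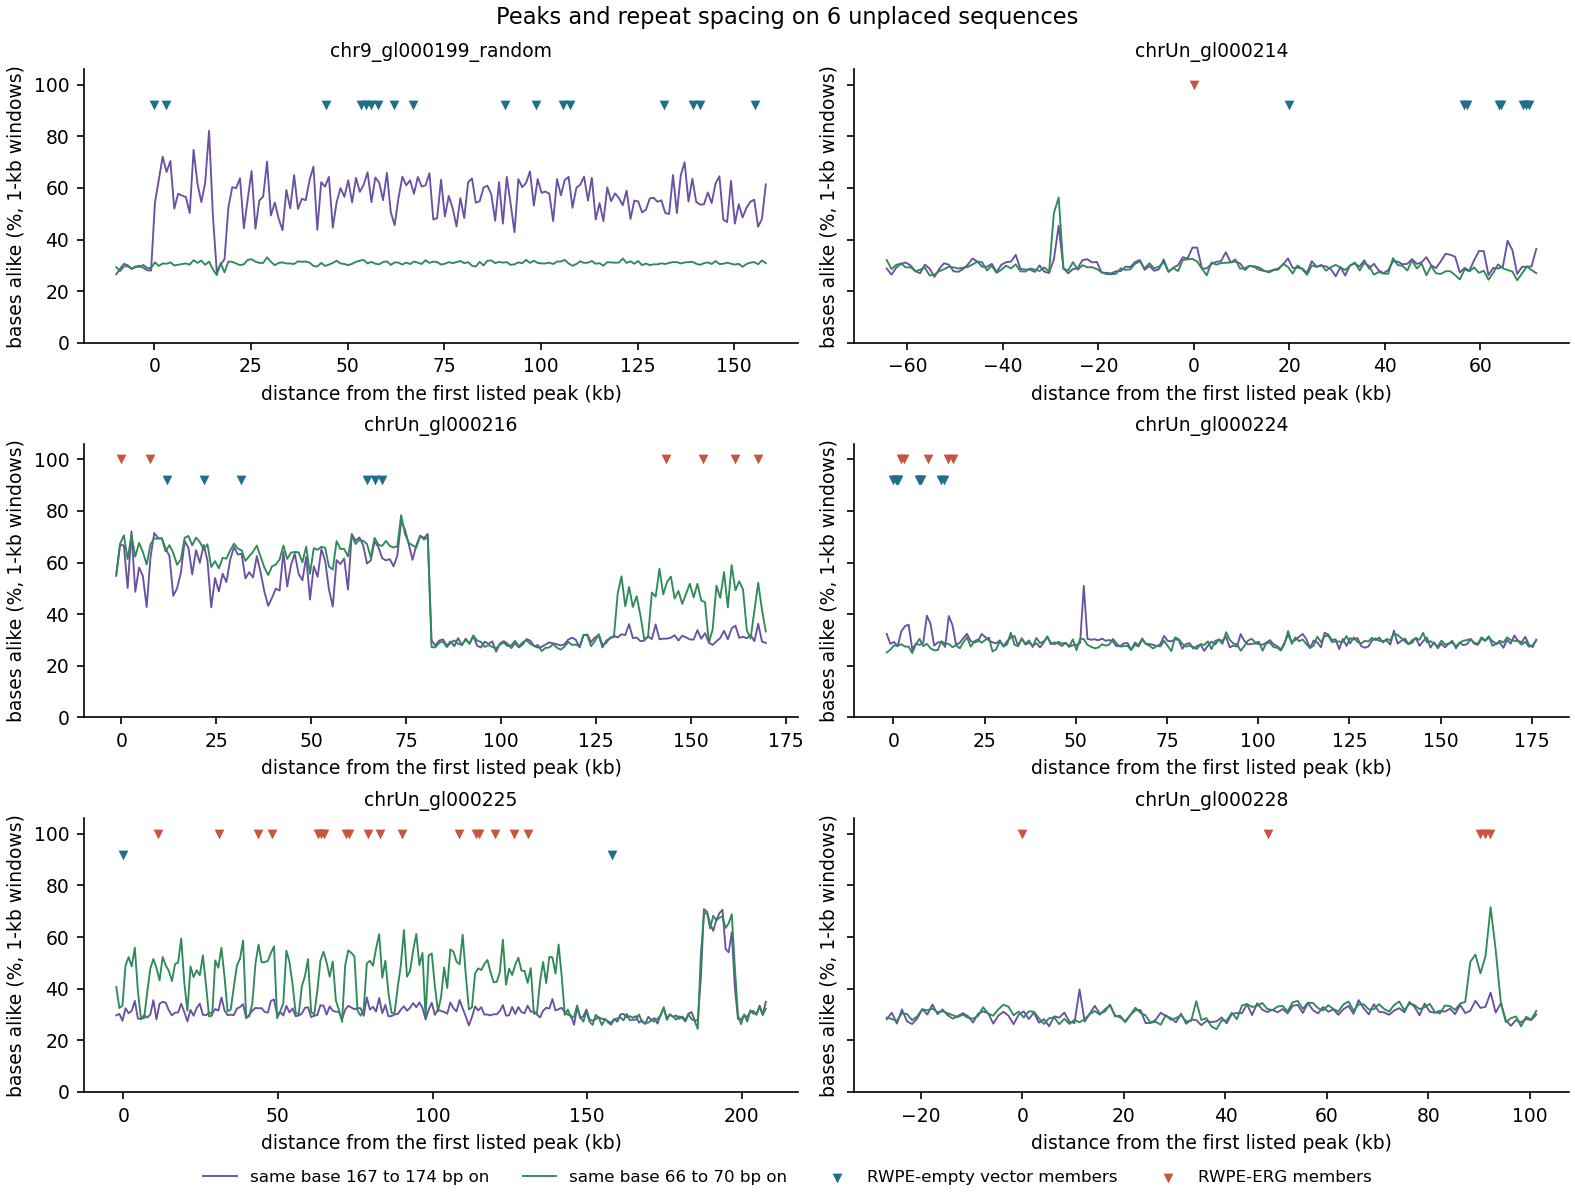
Peaks of both lists (triangles) and the share of bases (%) that recur at the spacing of alpha satellite and at 66 to 70 bp, in 1-kb windows of 6 unplaced sequences, against distance from the first listed peak (kb). RWPE-empty vector peaks follow the alpha satellite-length array of chr9_gl000199_random and RWPE-ERG peaks the 68-bp arrays of chrUn_gl000225, chrUn_gl000216 and chrUn_gl000228. GGAAT repeats raise both lines, since 70 and 170 are multiples of 5.

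On chrUn_gl000224 the lists met in one repeat and stayed apart within it. A unit of 6296 bp recurs where the peaks lie. All 9 RWPE-empty vector peaks have their best chromosome match near the gap of chromosome 4, and of the 5 RWPE-ERG peaks 3 match there best and 2 on chromosome 21. Counted from the centre of the first peak, the 9 RWPE-empty vector peaks had centres 0 to 1349 bp into the unit, and the 5 RWPE-ERG peaks 2052 to 3624.5 bp into it, with no overlap in any of 3 units. The GC content at the summits was 34.5 to 45.5% in the first and 55.0 to 61.5% in the second. The RWPE-empty vector peaks had 48 to 102 tags at local inputs of 8.07 to 36.3, and the RWPE-ERG peaks, in the 147-bp repeat, had 10 to 22 tags at inputs of 6.37 to 22.4. The smallest gap between the lists was 586 bp. The fragments differ in length, 85 bp in the RWPE-empty vector library and 299 bp in the RWPE-ERG library, and the part of this and of base composition in the pattern was not tested. A like unit of 6310 bp recurs on chrUn_gl000214, where the RWPE-empty vector list had 8 peaks with 16 to 78 tags, 7 of them best matched to chromosome 4. The RWPE-ERG peak there, chrUn_gl000214:64135-65500, lay 19114 bp away in the 64-bp repeat, with 45 tags, a local input of 33.4 and a -log10 p of 18.1.

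**Figure D5:**
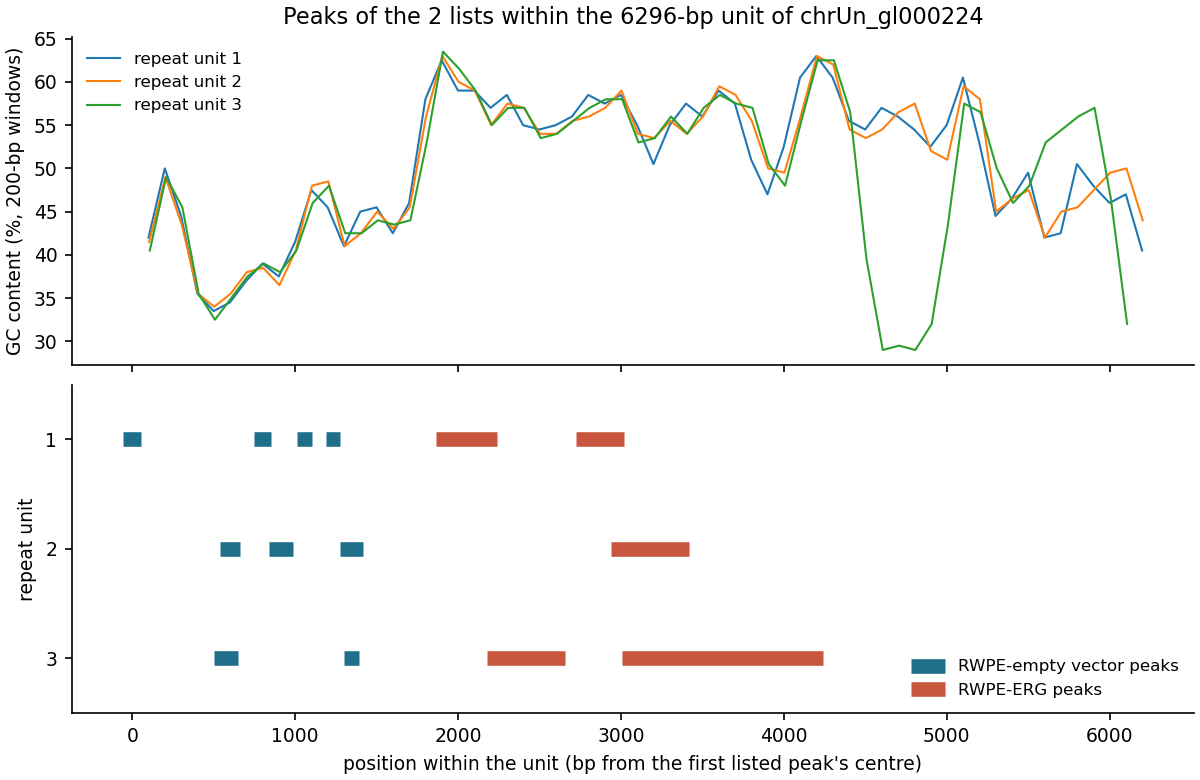
GC content (%, 200-bp windows, upper panel) and listed peaks (lower panel) in 3 consecutive units of 6296 bp of chrUn_gl000224, against the position within the unit (bp from the centre of the first listed peak). RWPE-empty vector peaks have their centres at 0 to 1349 bp, where the GC content is low, and RWPE-ERG peaks at 2052 to 3624.5 bp, where it is high. The GC content is also high farther along, at 60.5% at 5100 bp of unit 1, past all listed peaks of the unit.

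chr4_gl000193_random held 8 RWPE-ERG members with 6 to 10 tags, local inputs of 1.85 to 5.56 and GC of 53.0 to 59.0%, and 7 of them match chromosome 9 best, at 90.6 to 93.9% identity. The best chromosome matches of 2 peaks on chrUn_gl000228, with 20 and 16 CpG sites in 200 bp, are near the end of the long arm of chromosome 10, at 99.7 and 100% identity, one of them near DUX4L10. chrUn_gl000228 repeats a unit of 3306 bp, close to the length of the D4Z4 repeat, which holds copies of DUX4, an early embryonic transcription factor. Their tags were 11 and 4. On chrUn_gl000222 a peak with a GC content of 65.0% had 23 tags and a local input of 13.0. The other sequences held 1 or 2 members of a list each, RWPE-ERG peaks of 3 to 9 tags on chrUn_gl000211, chrUn_gl000221, chrUn_gl000229, chrUn_gl000231, chrUn_gl000234, chrUn_gl000235, chrUn_gl000237, chrUn_gl000239 and chr17_ctg5_hap1, and RWPE-empty vector peaks of 12 to 32 tags on chr7_gl000195_random, chrUn_gl000217, chrUn_gl000221, chrUn_gl000229, chrUn_gl000232, chrUn_gl000235 and chrUn_gl000241. By best chromosome match, 47 of the 50 RWPE-empty vector members on unplaced sequences match pericentromeric sequence, and of the 57 RWPE-ERG members 32 are pericentromeric and 20 subtelomeric.

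Peaks of both lists occur on 7 unplaced sequences, of 12 and 16 that hold any, and there 0 RWPE-ERG members overlap a RWPE-empty vector peak. For all 57 RWPE-ERG members the share is 0%, with a Wilson interval of 0 to 6.31%. Over the whole RWPE-ERG list 17 of 1481 peaks (1.15%) overlap a RWPE-empty vector peak, which is inside that interval. The lack of overlap thus does not set these members apart from their list. On chromosomes, 11 RWPE-empty vector members (6.63% of all 166) overlap 10 RWPE-ERG peaks (0.675% of that list). Where at least 50% of both peaks had to overlap, 1 did. Over the whole RWPE-empty vector list 20 of 424 peaks (4.72%) overlap one, which are these 11 and all 9 on the ribosomal sequence, with 0 of the 249 chromosome 19 peaks. They include the peak of the ADAP1 and COX19 exon, with 38 tags and a fold of 8.24 against 9 tags and a fold of 7.75 in the RWPE-ERG list, and the RAB3GAP1 repeat, with 30 tags and 8.52 against 9 tags and 7.5. The ribosome-like chr2:133028361-133028464 had 34 tags and 8.50 against 8 tags and 6.05. The other ADAP1 and COX19 peaks share 1 RWPE-ERG peak of 7 tags. Others were chr1:148850006-148850292 and chr16:32817514-32817601, both with a 13-bp spacing, chr1:149029294-149029442, chr12:131962124-131962246 and chr2:91986919-91987029, with 17 to 46 tags against 4 to 16. The folds are not on one scale, since 1 is added to tag counts that differ in depth.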

How the data were processed

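The PABPC1 ChIP of each cell line (RWPE-empty vector, RWPE-ERG) was sequenced as 1 pooled library beside an input. Per the submitters' notes and the study's methods, reads were aligned to hg19 with Bowtie2, SAMtools took out duplicates, bedtools took out blacklisted regions, and MACS2 2.1.2 listed peaks down to a p of 0.001, with the input as control. Per the file headers, the libraries held 38648756 and 2366623 ChIP tags and 15751557 and 9746026 input tags. The deposited pileup is the fragment coverage at the summit, scaled by the authors' MACS2 run to the shallower of ChIP and input, from which whole tags were taken back. The deposited -log10 p and -log10 q values compare that pileup with the local background. The deposited fold enrichment is the ratio of pileup plus 1 to background plus 1, from which local input was computed.

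Peaks were described in 200 bp around the summit with pandas 2.3.3, numpy 2.4.6, numba 0.67.0, pysam 0.24.0 and scipy 1.17.1 under Python 3.11.15, aligned with BLAST+ 2.17.0 (50 bp, 80% identity) and drawn with matplotlib 3.10.9. Repeated words were counted over the whole listed peak, and in the genome over 200-bp windows. The sequence functions were tested on simulated sequence. Motifs were counted on both strands, and every GGAAT is also a GGAA. Named regions were, in each list, the 10 with the highest -log10 p, those overlapping the other list, loci of 3 or more members within 100 kb, every unplaced sequence, and the 5 with the highest and lowest local input. Others named (chromosome 9 genes, interspersed and 63-bp repeats, FAM120B) were picked after their values were seen. The members and lists were chosen with earlier results of these data known, and the repeat kinds were set after values were seen. Intervals cover counting error only. The values of 1 named region are not reported here. Alternatives were other limits on p, q, fold, window, match, word length, overlap and distance.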

Additional observations from a re-analysis of the deposited data

How the results depend on the processing

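Of 48 alternative settings over 18 values, 18 left the value within its interval or within 1.5 times and 30 moved it. Requiring a -log10 p of at least 5 left 67 RWPE-empty vector members with a median local input of 3.77. A q of at most 0.05 left 31, with a median of 4.46, and put 5.88% of those on chromosomes in pericentromeric and 41.2% in subtelomeric sequence. A fold of at least 5 left 19. In RWPE-ERG members the q limit gave a median local input of 36.6 and the fold limit left 7.

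Tandem repeats held 17.5% of RWPE-empty vector members at a match of 70%, 4.82% at 90% and 6.02% in 400 bp. They held 21.4% of RWPE-ERG members at 70%, 1.79% at 90%, 3.57% in 100 bp and 1.79% in 400 bp. Repeated words held 77.1% and 82.1% of the lists with 24-base words, 48.8% and 42.9% with 50-base words, and 36.7% and 30.4% where 5 or more places were required. A single GGAAT was present in 38.6% and 28.6%. AAAAA was present in 51.2% of RWPE-empty vector members in 100 bp and 56.6% over the whole peak, and in 17.9% of RWPE-ERG members over the whole peak. When 50% of each peak had to be covered by the other, 1 RWPE-empty vector member was shared, and within 1 kb 3 RWPE-ERG members had a partner. Alignments of at least 100 bp left 38 RWPE-empty vector members in families. Within 0.5 Mb of an end lay 6.90%. The cause of these moves was not tested.

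No paired analysis was possible because each condition has 1 library. RWPE-ERG members of 3 to 10 tags rest on few reads. The treatment of reads that match many places is not given in the sources used here, so the presence, tags and position of peaks in repeats are uncertain to an extent that was not tested.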
